A study of Mus musculus with 6 samples.

Results

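Dual specificity phosphatases (DUSP) and the Sprouty and Spred proteins switch mitogen-activated protein kinase (MAPK) signalling back off. The DUSP enzymes described here remove the activating phosphates from ERK, JNK or p38 kinases, and Sprouty and Spred proteins act further upstream, between growth factor receptors, Ras and Raf. Several of these genes are themselves switched on by the pathway they restrain, and Dusp1 is also induced by cAMP, the second messenger that noradrenaline raises in fat cells in the cold. The genes were taken as a fixed list by name: the phosphatase genes Dusp1, Dusp2, Dusp4, Dusp5, Dusp6 and Dusp8, the Sprouty genes Spry1, Spry2 and Spry4, and Spred1. This list was chosen with earlier results of these data known. All 10 were among the 16627 genes of the deposited count table, and all 10 were among the 16366 genes that passed the filter on low counts and were tested.

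RNA was sequenced from inguinal white adipose tissue, the fat pad under the skin of the groin, of mice held at 4 °C for 6 hours. The 3 Celf1 AKO libraries came from mice that lack Celf1 in adipocytes; its protein binds RNA and takes part in splicing and mRNA decay. The 3 Flox control libraries came from littermates kept in the same cold; per the series title, both groups carry floxed (fl/fl) Celf1 alleles. The sources used here do not state the age or sex of the mice or the Cre driver, and the labels do not state that each library is a separate mouse, so p-values here reflect differences among libraries, which may be technical. The series asked what Celf1 does in the beiging of this fat, the appearance of heat-producing adipocytes.

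Libraries held 54835348 to 64676854 counts in Celf1 AKO and 62382822 to 64979443 in Flox control, so 1 CPM (a gene's count scaled to a common library size with TMM factors) rested on 54.9 to 67.8 counts in a library. Celf1 was at 52.5, 49.8 and 63.0 CPM in Celf1 AKO, against 126, 114 and 144 CPM in Flox control, with no overlap (log2 fold change -1.21, SE 0.14, edgeR adjusted p = 0.122, and 0.0174 without Celf1 AKO replicate 3); the label places the knockout in adipocytes, and the tissue holds other cells too. Markers of mature adipocytes, 2 of 8 of them higher and 6 lower in Celf1 AKO, summed to 26741 to 33434 CPM in Celf1 AKO, against 31172 to 34980 CPM in Flox control. Celf1 AKO replicate 3 stood apart from its group: across genes the correlation of its log2 CPM was 0.978 and 0.976 with the other Celf1 AKO libraries, but 0.983 to 0.986 with the Flox control libraries. Acta1, the skeletal muscle actin gene, was at 1039 CPM in that library and at 23.1 to 75.2 CPM in the other 5.

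In Celf1 AKO, 8 of the 10 feedback genes were at higher mean levels than in Flox control and 2, Dusp4 and Spred1, were lower. The log2 fold changes ran from -0.44 to 1.51 with a median of 0.79, while the median over all genes tested was -0.02. None of the 10 passed the test over all genes (edgeR's quasi-likelihood test, Benjamini-Hochberg adjusted p of 0.252 to 0.800), in a fit that called 0.0122% of all genes in either direction. At an unadjusted p under 0.05, 6 of the 10 were higher and 0 lower, where 6.75% of all genes were higher and 6.17% lower. In 4 of the 10, Dusp2, Dusp8, Spry1 and Spry4, every Celf1 AKO library lay above every Flox control library, which held for 7.81% of all genes. The reverse held for 0 of the 10 and for 9.51% of all genes. Since the list was chosen with earlier results of these data known, such shares describe it and do not test it. DESeq2 called Dusp8 (adjusted p = 0.00554), Dusp1 (0.0217) and Spry4 (0.0313) higher, among 2.07% of all genes that it called higher. Leaving out Celf1 AKO replicate 3, edgeR called Dusp1 higher (adjusted p = 0.0300) and no other of the 10, where it called 1.43% of all genes higher. In whole tissue, a change in the number of cells of a type and a change in RNA per cell cannot be told apart.

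**Figure D1:**
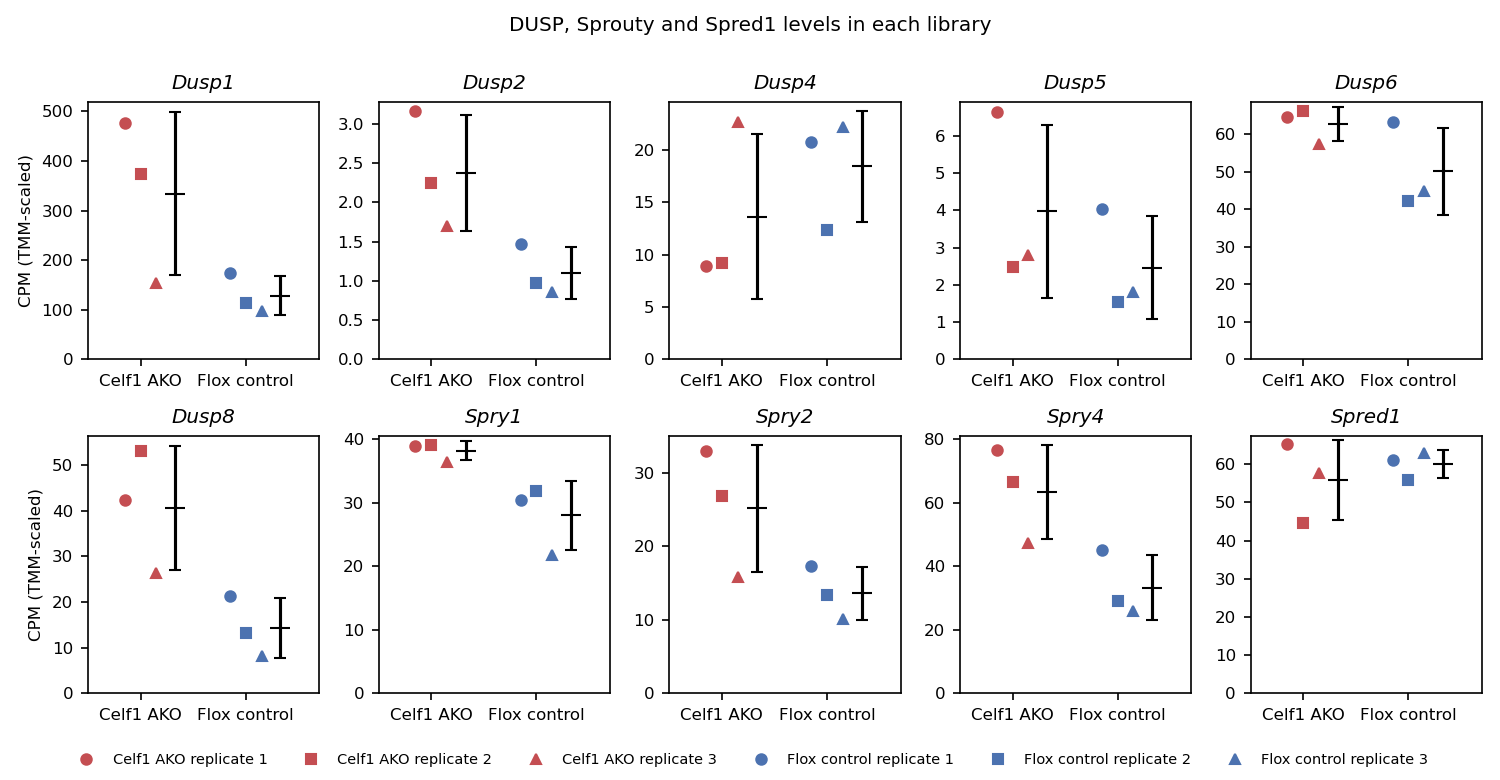
TMM-scaled CPM (axes from 0) of the 10 genes in the 3 Celf1 AKO libraries (red) and the 3 Flox control libraries (blue), with a marker shape for each replicate and black bars for mean ± SD. The groups do not overlap for Dusp2, Dusp8, Spry1 and Spry4, and Celf1 AKO replicates 1 and 2 lie below all controls for Dusp4.

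Dusp1 (ENSMUSG00000024190; GRCm38 chromosome 17, 26505590 to 26562128, minus strand) encodes MKP-1, a nuclear phosphatase of p38, JNK and ERK made as an immediate early gene. Its level was 476, 373 and 153 CPM in Celf1 AKO, against 173, 114 and 98.2 CPM in Flox control, here and below in the order of replicates 1, 2 and 3. Replicates 1 and 2 of Celf1 AKO were thus far above every control, while replicate 3 lay inside the control range, below Flox control replicate 1. The log2 fold change was 1.38 (SE 0.41, edgeR adjusted p = 0.293; exact two-sided permutation p = 0.2, where 3 against 3 cannot go below 0.1). It was 1.72 without Celf1 AKO replicate 3 and 1.07 without replicate 1 (edgeR adjusted p = 0.0300 and 0.471). Dusp1 had 6415 to 26163 counts per library. The annotated gene shares 640 bases with Ergic1 (4603 to 7822 counts per library), on the opposite strand. It shares 956 bases with the pseudogene Gm8225 (6 to 30 counts per library), also on the opposite strand. A further 1853 and 227 bases are shared with 2 annotated genes on its own strand. Whether the counting used strand is not stated in the sources used here, so reads from the shared bases cannot be told apart. Overlaps on the opposite strand were also annotated for Dusp5 (547 bases), Dusp8 (86), Spry1 (710) and Spry4 (71 and 119). The genes on the other side of those overlaps were not in the count table.

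Dusp8 (ENSMUSG00000037887; chromosome 7, 142079490 to 142095843, minus strand), a phosphatase that acts on JNK and p38, had the highest fold change of the 10. It was at 42.4, 53.0 and 26.2 CPM in Celf1 AKO, against 21.2, 13.3 and 8.19 CPM in Flox control. The groups did not overlap, though the lowest Celf1 AKO library, replicate 3, was only a little above Flox control replicate 1. Its log2 fold change was 1.51 (SE 0.38, edgeR adjusted p = 0.252; exact permutation p = 0.1), and the value ran from 1.23 to 1.92 as each library was left out in turn.

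Dusp1 and Dusp8 also had a promoter word in common. Promoters of 8 of the 10 genes, from 250 bases before to 50 bases after the transcription start, were matched by symbol in RefSeq (GRCm38.p6); those of Dusp4 and Spry4 were not among them. The full cAMP response element (CRE), TGACGTCA, which reads the same on both strands and is bound by CREB-family factors, stood in the Dusp1 and Dusp8 promoters and in none of the other 6, and in 1.79% of all 32851 promoters of the same length. Dusp8 held it in 2 places, starting 107 and 63 bases before the start site; 13 of the 32851 promoters held it more than once. Dusp1 held it in 1 place, starting 143 bases before the start site. These start sites are those of RefSeq. The GENCODE spans of both genes reach further upstream, to 26562128 for Dusp1 and to 142095843 for Dusp8. The promoters of these, the 2 genes with the highest fold changes, are shown 5′ to 3′ with the full CRE in capitals (Dusp1 at chr17:26508423-26508722 and Dusp8 at chr7:142095235-142095534, minus strand for both).
Dusp1: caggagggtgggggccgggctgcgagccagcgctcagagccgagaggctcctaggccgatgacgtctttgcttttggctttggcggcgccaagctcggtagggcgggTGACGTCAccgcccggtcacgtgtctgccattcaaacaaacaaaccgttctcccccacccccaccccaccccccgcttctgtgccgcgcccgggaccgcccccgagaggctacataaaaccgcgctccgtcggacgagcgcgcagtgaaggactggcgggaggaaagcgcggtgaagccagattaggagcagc
Dusp8: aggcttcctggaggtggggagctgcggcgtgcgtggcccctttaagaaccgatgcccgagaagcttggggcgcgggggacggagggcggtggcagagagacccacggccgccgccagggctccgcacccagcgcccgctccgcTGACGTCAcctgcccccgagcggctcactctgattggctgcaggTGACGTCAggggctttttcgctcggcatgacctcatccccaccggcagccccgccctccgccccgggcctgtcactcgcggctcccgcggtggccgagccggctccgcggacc
These letters describe the windows and do not show binding of a factor.

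The CRE core TGACG, which every full CRE also holds, stood on either strand in the promoters of Dusp1, Dusp2, Dusp5 and Dusp8, 4 of the 8, and in 20.8% of all promoters. The AP-1 word TGANTCA (7.81% of all promoters) and the ETS word CCGGAAG (8.86%), both searched on either strand, were in 0 of the 8. The CArG box, the word bound by serum response factor, stood in 1.63% of all promoters and in that of Dusp5 alone among the 8. Dusp5 held it in 2 adjacent copies, shown here in capitals because 6 of all promoters held more than 1 (chr19:53529058-53529087, plus strand).
Dusp5: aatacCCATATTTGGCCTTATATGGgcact

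Celf1 protein is known to bind GU-rich words in the 3′ untranslated regions (3′ UTR) of short-lived mRNAs. In GENCODE M21 the GU-rich word TGTTTGT (in DNA letters, sense strand) occurred once each in the longest annotated 3′ UTR of Dusp1, Dusp6, Spry2, Spry4 and Spred1, and in that of 29.0% of the 13981 tested genes with one. Its longer form, in which TTGT follows directly, was in 0 of the 10 genes and in 4.19% of the genes. Lengths ran from 581 bases in Dusp2 to 4330 bases in Spred1, against a median of 1166 bases over the tested genes, and a longer 3′ UTR has more places for any word. The AU-rich word ATTTATTTA, of the kind that marks mRNAs for fast decay, was in the 3′ UTR of Dusp1 and Dusp8 alone among the 10 and in 6.43% of the genes. The sites are shown with that word in capitals, since they fall in the same 2 genes as the full CRE; counted from the first base after the stop codon, the word begins at base 105 in Dusp1 (transcript Dusp1-202, chromosome 17) and at base 129 in Dusp8 (Dusp8-201, chromosome 7).
Dusp1: gctggtccttATTTATTTAacacccccct
Dusp8: tcgattttttATTTATTTAagctagtgat

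Dusp2 (ENSMUSG00000027368; chromosome 2, 127336159 to 127338376, plus strand) encodes a nuclear phosphatase best known from activated immune cells. Its counts were low, 56 to 174 per library. It was at 3.17, 2.24 and 1.71 CPM in Celf1 AKO, against 1.48, 0.97 and 0.86 CPM in Flox control, without overlap (log2 fold change 1.11, SE 0.34, edgeR adjusted p = 0.301). Dusp5 (ENSMUSG00000034765; chromosome 19, 53529109 to 53542431, plus strand), a nuclear phosphatase specific for ERK, was at 6.64, 2.47 and 2.80 CPM in Celf1 AKO, against 4.05, 1.54 and 1.81 CPM in Flox control. The groups overlapped for Dusp5, and replicate 1 was by far the highest library within each group. Its log2 fold change of 0.69 (SE 0.51, edgeR adjusted p = 0.599) rested on Celf1 AKO replicate 1, being 0.14 without it and 1.24 without Flox control replicate 1.

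Dusp4 (ENSMUSG00000031530; chromosome 8, 34807297 to 34819894, plus strand), which encodes MKP-2, a nuclear phosphatase closely related to MKP-1, had a lower mean in Celf1 AKO. It was at 8.94, 9.22 and 22.7 CPM in Celf1 AKO, against 20.8, 12.4 and 22.2 CPM in Flox control. Replicates 1 and 2 of Celf1 AKO were below all controls, and replicate 3 was the highest of the 6 libraries. With all libraries the log2 fold change was -0.44 (SE 0.40, edgeR adjusted p = 0.673). Without Celf1 AKO replicate 3 it was -1.02 and still missed the threshold (adjusted p = 0.0786), and it was -0.17 and -0.22 without Celf1 AKO replicates 1 and 2.

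Dusp6 (ENSMUSG00000019960; chromosome 10, 99263231 to 99267489, plus strand) encodes MKP-3, the cytoplasmic phosphatase of ERK. It was at 64.6, 66.1 and 57.6 CPM in Celf1 AKO, against 63.4, 42.3 and 44.8 CPM in Flox control. Flox control replicate 1 reached the Celf1 AKO levels, so the groups overlapped, and the log2 fold change was 0.32 (SE 0.17, edgeR adjusted p = 0.455), reaching 0.53 when Flox control replicate 1 was left out and 0.21 when replicate 2 was.

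The FPKM values that the authors deposited divide counts by gene length and so allow levels of different genes to be compared. Dusp1 was the highest of the 10 in every library, with 142 ± 69.2 FPKM in Celf1 AKO and 55.0 ± 13.4 FPKM in Flox control (SD, n = 3 each). Dusp6 followed with 22.3 ± 0.864 FPKM in Celf1 AKO and 17.8 ± 2.94 FPKM in Flox control. Dusp5 and Dusp2 were the lowest of the 10, with means of 1.60 and 1.46 FPKM in Celf1 AKO and 0.976 and 0.676 FPKM in Flox control. In Celf1 AKO, Spry4, Spry1, Spry2, Spred1, Dusp8 and Dusp4 lay between, from 13.7 down to 5.02 FPKM, and each neighbour in that order overlapped the next. In Flox control the order in between was Spry1, Spred1, Spry4, Dusp4, Spry2 and Dusp8, from 10.1 down to 2.92 FPKM, where the ranges of Spry1 and Spred1, of Spry4 and Dusp4 and of Dusp4 and Spry2 overlapped. Dusp1 made up 83.8%, 80.0% and 64.4% of the summed FPKM of the 6 DUSP genes in Celf1 AKO, against 66.8%, 67.6% and 61.1% in Flox control. The share was higher than in any control in Celf1 AKO replicates 1 and 2, and within the control range in replicate 3. On this scale the groups did not overlap for Dusp6 (lowest 21.4 FPKM in Celf1 AKO, highest 21.2 FPKM in Flox control) and Spry2 (lowest 7.91 FPKM in Celf1 AKO, highest 7.78 FPKM in Flox control), which did overlap in CPM. With Dusp2, Dusp8, Spry1 and Spry4 that made 6 of the 10 without overlap on the FPKM scale, where 8.32% of all genes were higher without overlap.

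**Figure D2:**
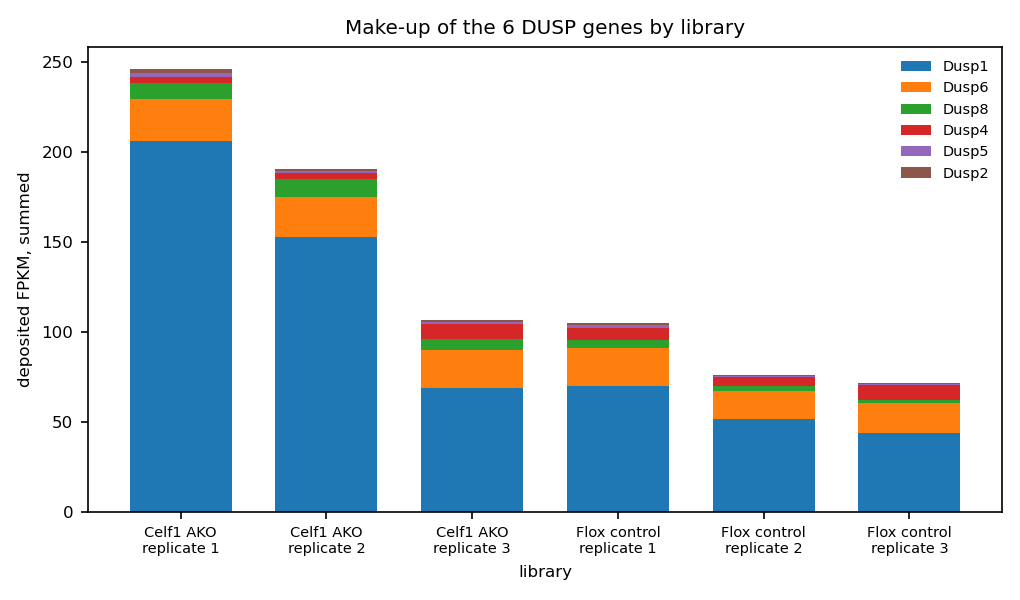
Deposited FPKM of the 6 DUSP genes, stacked, in the 3 Celf1 AKO libraries (left) and the 3 Flox control libraries (right). The sum is 246, 191 and 107 FPKM in Celf1 AKO against 105, 76.0 and 71.7 FPKM in Flox control, and Dusp1 is the largest layer in every library.

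Among the Sprouty genes, whose proteins block growth factor receptor signalling towards Ras and Raf, all 3 were at higher mean levels in Celf1 AKO. Spry4 (ENSMUSG00000024427; chromosome 18, 38586247 to 38601415, minus strand) was at 76.6, 66.4 and 47.3 CPM in Celf1 AKO, against 45.1, 29.0 and 25.8 CPM in Flox control. The groups did not overlap, with Celf1 AKO replicate 3 just above Flox control replicate 1 (log2 fold change 0.93, SE 0.25, edgeR adjusted p = 0.265; 0.77 to 1.21 with each library left out). Spry2 (ENSMUSG00000022114; chromosome 14, 105891947 to 105896819, minus strand) was at 32.9, 26.8 and 15.9 CPM in Celf1 AKO, against 17.4, 13.3 and 10.2 CPM in Flox control. It overlapped through the same pair of libraries, Celf1 AKO replicate 3 lying below Flox control replicate 1 (log2 fold change 0.89, SE 0.30, edgeR adjusted p = 0.313), and without Celf1 AKO replicate 3 its adjusted p was 0.0510. Spry1 (ENSMUSG00000037211; chromosome 3, 37639947 to 37644598, plus strand) was at 38.9, 39.1 and 36.4 CPM in Celf1 AKO, against 30.4, 31.8 and 21.8 CPM in Flox control. For Spry1 the 3 Celf1 AKO libraries lay close together, replicate 3 with the others, and all were above the controls (log2 fold change 0.45, SE 0.16, edgeR adjusted p = 0.323). The value was 0.29 without Flox control replicate 3 and at most 0.54 with another library left out.

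Spred1 (ENSMUSG00000027351; chromosome 2, 117121374 to 117182279, plus strand) encodes a membrane protein that brings the Ras inhibitor neurofibromin to Ras. It was at 65.3, 44.5 and 57.7 CPM in Celf1 AKO, against 61.0, 56.0 and 63.0 CPM in Flox control. The Celf1 AKO libraries lay on both sides of the control range, with a log2 fold change of -0.10 (SE 0.15, edgeR adjusted p = 0.800) that was 0.034 without Celf1 AKO replicate 2.

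The order of the libraries was similar for most of the 10 genes. Celf1 AKO replicate 1 was the highest of all 6 libraries for 6 genes and Celf1 AKO replicate 2 for 3, while Flox control replicate 3 was the lowest for 6. Within Celf1 AKO, replicate 3 was the lowest library for 7 genes, and within Flox control replicate 1 was the highest for 7. Celf1 AKO replicate 1 was above all 3 controls for 9 genes and replicate 2 for 7, in libraries where 32.2% and 30.4% of all genes were. Celf1 AKO replicate 3 was above all controls for 5, Dusp2, Dusp4, Dusp8, Spry1 and Spry4, where 24.5% of all genes were. As the mean deviation of log2(CPM + 0.5) from the control mean, the 10 genes stood at 0.87, 0.60 and 0.37 in the Celf1 AKO libraries, against 0.37, -0.15 and -0.23 in the Flox control libraries, so Celf1 AKO replicate 3 and Flox control replicate 1 were level.

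**Figure D3:**
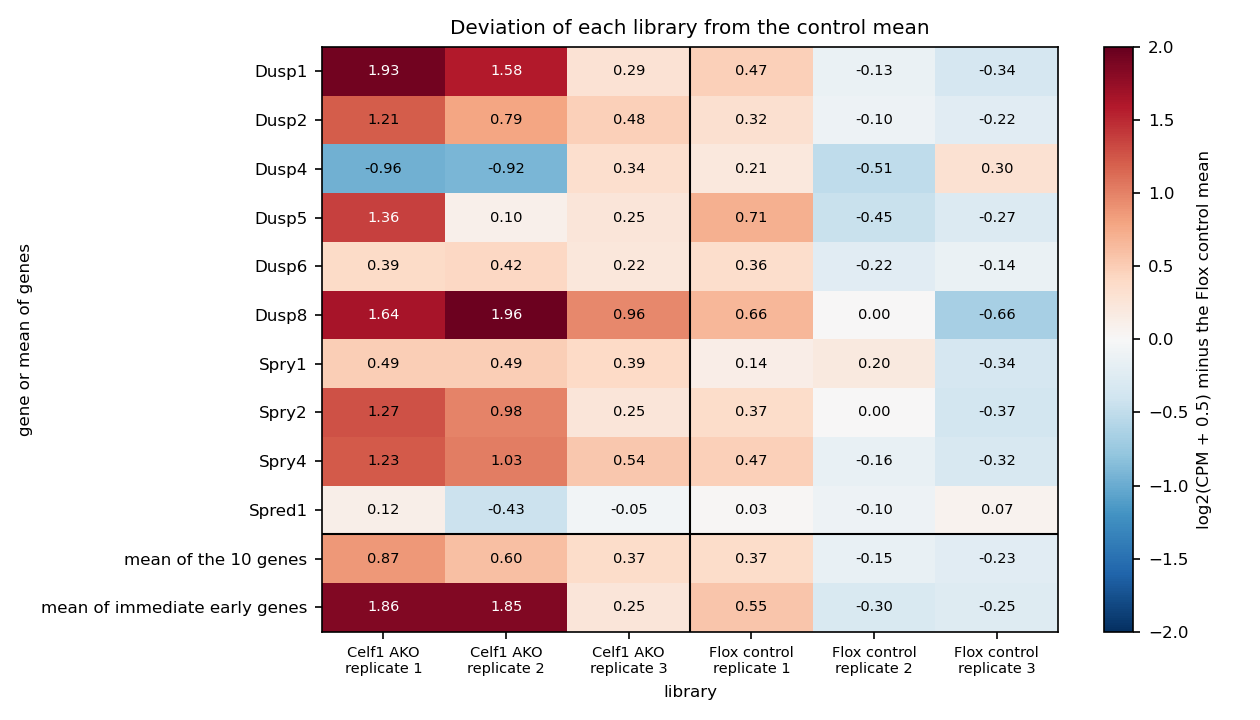
Log2(CPM + 0.5) of each gene in each library minus its Flox control mean, with Celf1 AKO libraries left of the line and Flox control libraries right of it; the bottom rows are means over the 10 genes and over 16 immediate early genes. Celf1 AKO replicates 1 and 2 are red for most genes and blue for Dusp4, and the mean of the immediate early genes is 1.86 and 1.85 there, against 0.25 in Celf1 AKO replicate 3.

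Immediate early genes are switched on by cells within minutes of a stimulus or of handling. Of 16 in the list (among them Fos, Jun, Egr1, Ier2 and Nr4a1), 15 were higher, with a median log2 fold change of 1.59, and 0 passed edgeR's test over all genes (12 higher at an unadjusted p under 0.05; DESeq2 called 6, and edgeR 9 without Celf1 AKO replicate 3). Their summed level was 1132 to 3859 CPM in Celf1 AKO, against 671 to 1376 CPM in Flox control, and Celf1 AKO replicate 3, at 1132 CPM, was below Flox control replicate 1. Members differed among themselves. Egr3 had a log2 fold change of -0.04. Fosb was at 7.35, 32.6 and 10.7 CPM in Celf1 AKO, against 12.1, 5.71 and 15.2 CPM in Flox control. For Nr4a3, Celf1 AKO replicates 2 and 3 were below Flox control replicate 1. Their part in the values of the feedback genes was not tested.

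Markers of some other cell types differed as well, and their part in the result was not tested either. Schwann cell markers summed to 551 to 800 CPM in Celf1 AKO, against 345 to 426 CPM in Flox control (median log2 fold change 1.10). Of these, 9 of 9 were higher, all without overlap, which held for 7.81% of all genes. Endothelial markers summed to 1122 to 1304 CPM in Celf1 AKO, against 632 to 929 CPM in Flox control (median 0.60). Of these, 9 of 10 were higher, and 7 were higher without overlap. By adjusted p, edgeR called 0 of either list (9 and 7 higher at an unadjusted p under 0.05), and DESeq2 6 and 4. Without Celf1 AKO replicate 3, edgeR called 1 higher in each list. Neutrophil markers were low (16.3 to 121 CPM in Celf1 AKO, against 3.34 to 17.6 CPM in Flox control, 6 of 6 tested higher), were highest in Celf1 AKO replicate 3, and included Ngp, which had 0 counts in Flox control replicates 2 and 3. Macrophage markers (1 of 8 higher) summed to 1313, 446 and 945 CPM in Celf1 AKO, against 831, 989 and 1118 CPM in Flox control. Preadipocyte and fibroblast markers (3 of 9 higher; 3673 to 5823 CPM in Celf1 AKO, 4081 to 5264 CPM in Flox control) and pericyte markers (5 of 7 higher; 565 to 650 CPM in Celf1 AKO, 401 to 648 CPM in Flox control) overlapped between the groups. Lymphocyte markers (3 of 4 tested higher) stayed at 2.60 to 6.32 CPM in Celf1 AKO, against 3.41 to 5.05 CPM in Flox control. Epithelial markers (3 of 3 tested higher) summed to 12.0, 3.13 and 3.26 CPM in Celf1 AKO, against 2.32, 3.25 and 1.01 CPM in Flox control. They stood out in Celf1 AKO replicate 1, where Epcam was at 3.22 CPM, and Epcam had 0 counts in Flox control replicate 3. Of the 6 genes in the skeletal muscle list only Acta1 was in the deposited count table, with the values given above. Ckm, Myh4, Tnnt3, Mylpf and Myh1 were absent from it, so no other gene of that list could be set beside Acta1.

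**Figure D4:**
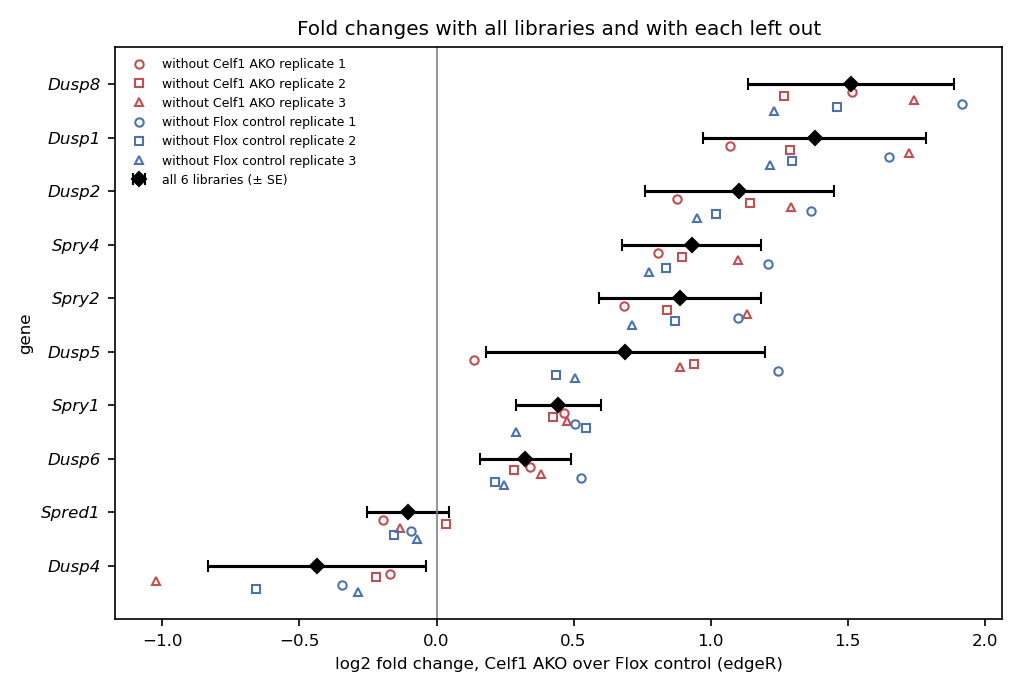
Log2 fold change (Celf1 AKO over Flox control, edgeR) of the 10 genes with all 6 libraries (black diamonds, bars are ± SE) and with each library left out (open symbols, red for a Celf1 AKO and blue for a Flox control library). Dusp4 moves to -1.02 without Celf1 AKO replicate 3 and Dusp5 to 0.14 without Celf1 AKO replicate 1, and Spred1 changes sign without Celf1 AKO replicate 2.

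Relatives of the 10 genes lay on both sides of 0. Of 11 other MAPK phosphatases and Sprouty relatives tested (of 12 in the list), 5 were higher and 6 lower, with a median log2 fold change of -0.02 (-0.08 without Celf1 AKO replicate 3), and 0 passed edgeR's test over all genes or DESeq2's, or had an unadjusted p under 0.05. Dusp7, a cytoplasmic ERK phosphatase related to Dusp6, was at 3.89, 3.47 and 9.42 CPM in Celf1 AKO, against 7.67, 11.9 and 12.2 CPM in Flox control. As for Dusp4, Celf1 AKO replicates 1 and 2 were below all controls and replicate 3 was not (log2 fold change -0.92, edgeR adjusted p = 0.400, and 0.0352 without Celf1 AKO replicate 3). Dusp10, a phosphatase of p38 and JNK, had a log2 fold change of 0.19 (edgeR adjusted p = 0.755), and that of Spred3 was 0.41.

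Of 7 other inhibitors that restrain receptor tyrosine kinases or Ras, 4 were higher and 3 lower (median 0.14, and 0.05 without Celf1 AKO replicate 3), and 0 passed by edgeR or DESeq2, 1 being higher at an unadjusted p under 0.05. Errfi1, which encodes the EGF receptor inhibitor MIG6, was at 700, 1148 and 280 CPM in Celf1 AKO, against 434, 191 and 257 CPM in Flox control (log2 fold change 1.27, edgeR adjusted p = 0.359). Celf1 AKO replicates 1 and 2 were the highest libraries for Errfi1 too, and replicate 3 was inside the control range. Il17rd, whose protein Sef damps FGF signalling, had a log2 fold change of -0.61 and Rasa1, a Ras GTPase activating protein, one of -0.23 (edgeR adjusted p = 0.413 and 0.403). Every Celf1 AKO library was below every control for Rasa1.

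Further up the pathway, 17 genes of the Ras to ERK cascade had a median log2 fold change of 0.02, with 9 higher and 8 lower, and summed to 1155 to 1161 CPM in Celf1 AKO, against 1122 to 1193 CPM in Flox control. Sos1, a Ras exchange factor, was at 27.5 ± 2.22 CPM in Celf1 AKO, against 36.6 ± 4.17 CPM in Flox control (mean ± SD of 3 libraries each), without overlap (log2 fold change -0.41, edgeR adjusted p = 0.301). The adaptors Shc1 and Grb2 had log2 fold changes of 0.27 and 0.16 (edgeR adjusted p = 0.442 and 0.521). For Grb2, every Celf1 AKO library was above every control. Of 12 genes of the p38 and JNK cascades, 9 were higher and 3 lower (median 0.12). Map2k6, a kinase of p38, was at 1.21 ± 0.327 CPM in Celf1 AKO, against 0.433 ± 0.0906 CPM in Flox control (log2 fold change 1.47, edgeR adjusted p = 0.251). Mapk13, a p38 kinase, was under 1 CPM in every library (log2 fold change 1.60, edgeR adjusted p = 0.301). Mapk14, the main p38 kinase, had a log2 fold change of -0.47 (edgeR adjusted p = 0.506).

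Among 13 FGF receptors and ligands, 8 were higher and 5 lower, with a median of 0.10 that was 0.32 without Celf1 AKO replicate 3. The receptor gene Fgfr3 was at 19.3, 26.0 and 28.1 CPM in Celf1 AKO, against 12.9, 12.2 and 5.69 CPM in Flox control (log2 fold change 1.26, edgeR adjusted p = 0.252). The ligand gene Fgf1 was at 9.35, 14.3 and 11.2 CPM in Celf1 AKO, against 6.21, 5.39 and 2.74 CPM in Flox control (log2 fold change 1.28, edgeR adjusted p = 0.252). Neither overlapped between the groups, and Celf1 AKO replicate 3 was not the lowest of its group for either. Fgf21, a hormone-like ligand, varied widely, at 2.60, 7.68 and 0.645 CPM in Celf1 AKO, against 1.17, 0.354 and 0.275 CPM in Flox control (log2 fold change 2.61, edgeR adjusted p = 0.326).

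Of 12 genes known to respond to ERK activity, of which Fos and Egr1 are also in the immediate early list, 11 were higher and 1 lower (median 0.68). Epha2, an ephrin receptor gene, was at 23.2, 25.5 and 16.0 CPM in Celf1 AKO, against 10.5, 7.47 and 3.99 CPM in Flox control, without overlap (log2 fold change 1.56, edgeR adjusted p = 0.237). The transcription factor genes Myc and Egr1 had log2 fold changes of 1.67 and 3.49 (edgeR adjusted p = 0.267 and 0.305, and 0.0275 and 0.0429 without Celf1 AKO replicate 3). For both, Celf1 AKO replicate 3 was inside the control range, with Egr1 at 375, 302 and 14.8 CPM in Celf1 AKO, against 43.1, 10.7 and 7.71 CPM in Flox control. By edgeR, 0 genes of these last 4 lists passed over all genes. At an unadjusted p under 0.05 there were 3 higher among the ERK-responsive genes, 3 higher and 1 lower among the FGF genes, 2 higher in the p38 and JNK cascades and 1 lower in the Ras to ERK cascade. DESeq2 called 2 ERK-responsive, 3 FGF and 1 p38 or JNK cascade gene higher, and without Celf1 AKO replicate 3 edgeR called 3 ERK-responsive genes and 1 FGF gene higher.

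**Figure D5:**
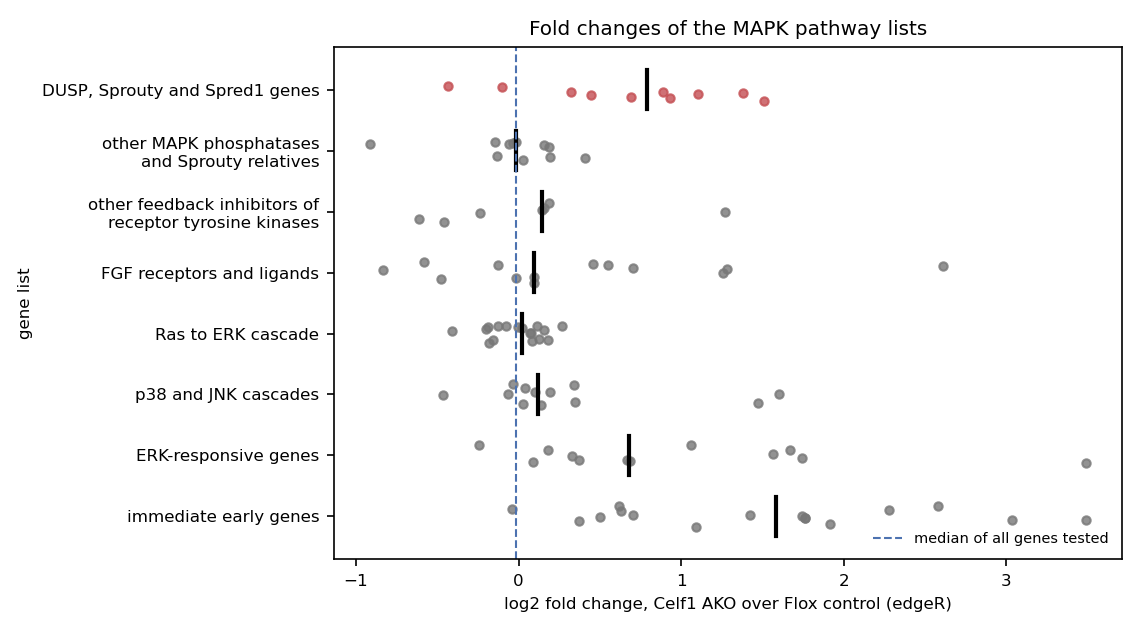
Log2 fold change (Celf1 AKO over Flox control, edgeR) of each tested gene (points) in the 10-gene list (red), the 6 pathway lists and the immediate early list (grey), with list medians as black bars and the median of all genes as a dashed line. The medians are 0.79 for the 10 genes, 0.68 for ERK-responsive genes and 1.59 for immediate early genes. They are -0.02 to 0.14 for the other 5 lists, among them the FGF list, whose median was 0.32 without Celf1 AKO replicate 3. Cell type lists are not drawn. Those with medians above 0.79 were the Schwann cell (1.10), epithelial (1.47, 3 genes tested), neutrophil (2.49) and skeletal muscle (2.88, Acta1 alone) markers.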

How the data were processed

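Per the file headers, the authors deposited a table of raw counts and a separate table of FPKM, each with 16627 Ensembl genes and 1 column per library. HISAT2, RSEM 1.3.1, GRCm38 and mm10 stand in the submitters' processing notes, with no role; annotation and strand setting are not stated there. Symbols came from a table of gene names (16522 identifiers matched, 105 did not) and positions from GENCODE M21 on GRCm38. Counts were tested with edgeR 4.0.16 in R 4.3.3 (TMM, default expression filter, robust quasi-likelihood test, genotype as the only term, all 6 libraries), with Benjamini-Hochberg adjustment over 16366 genes and a threshold of 0.05. The script was tested on simulated data. SE is the fold change over the root of F, and log2 CPM used a pseudocount of 0.5. Levels of different genes were compared on deposited FPKM. The 10 genes, the other lists and the tests were chosen with earlier results of these data known. Named were the 10 genes, Celf1, the 3 genes of smallest p in each of 6 pathway lists and the 5 genes most alike in pattern; Acta1, Ngp, Epcam and the immediate early genes are named as list members, some chosen after their values were seen. Alternatives were other normalizations and filters, DESeq2 1.42.0, limma 3.58.1 (voom, and log2 FPKM with 2 pseudocounts), the replicate number as a block, and each library left out. Exact permutation tests used scipy 1.17.1. Counting error is small beside the spread between libraries at these depths except for the lowest genes.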

Additional observations from a re-analysis of the deposited data

How the results depend on the processing

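The direction of 9 of the 10 genes held in all 17 alternatives; the exception was Spred1, whose log2 fold change was -0.10 with all libraries, -0.19 at the lowest, with Celf1 AKO replicate 1 left out, and 0.034 with Celf1 AKO replicate 2 left out. The median log2 fold change of the 10 genes was 0.79, and 0.48 with limma on log2(FPKM + 1), with or without the filter, since the pseudocount shrinks low genes; with 1 library left out it was lowest, 0.58, when that was Celf1 AKO replicate 1, and highest, 1.15, when it was Flox control replicate 1. Of the 10, edgeR called 0 with all libraries, 0 to 1 higher with each library left out (Dusp1, without Celf1 AKO replicate 3), and DESeq2 called 3 higher. Over all genes, edgeR called 2 higher and 0 lower. The count of higher genes was 0 with library-size normalization, limma-voom and limma on log2(FPKM + 1) or log2(FPKM + 0.1) with the filter, and 1 without the filter. DESeq2 called 344 higher and 150 lower. With each library left out, edgeR called 0 to 237 higher and 0 to 290 lower, the highest counts without Celf1 AKO replicate 3; the cause was not tested. The replicate block called 9 higher and 3 lower genes, none of them among the 10, and gave Celf1 an adjusted p of 0.0476. With the block in edgeR, the adjusted p of each of the 10 was lower than without it. The lowest were 0.0977 for Spry4, 0.110 for Dusp8, 0.114 for Spry2 and 0.143 for Dusp1. Across genes, the deviations of libraries of the same number from their group means correlated at 0.0709, -0.00842 and 0.273. For Celf1 AKO replicates 1 and 3, the control of the same number was the best match. Celf1 AKO replicate 2 correlated best with Flox control replicate 1 (0.299). Over the 10 genes, mean deviations fell from replicate 1 to replicate 3 in both groups. These values do not settle whether the numbers mark pairs, and they were not taken as pairs. Dusp2 and Dusp5, the lowest of the 10, rest on the fewest counts.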

Other observations

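Genes outside the 10 whose level followed theirs most closely were ranked by Pearson's r with the mean log2(CPM + 0.5) of the 10 genes over the 6 libraries, among 13072 genes with a mean of at least 1 CPM. The highest were Ubap2l, Slc25a25, Vdr, Crlf2 and Dazap2, with r of 0.993 to 0.996. With so many candidates and 6 libraries, such values are a description only. Slc25a25, an ATP-magnesium carrier of the inner mitochondrial membrane, was at 660, 468 and 311 CPM in Celf1 AKO, against 298, 128 and 134 CPM in Flox control (log2 fold change 1.36, edgeR adjusted p = 0.289). Vdr, the vitamin D receptor gene, was at 22.2, 12.4 and 9.19 CPM in Celf1 AKO, against 7.98, 3.28 and 3.11 CPM in Flox control (log2 fold change 1.61, edgeR adjusted p = 0.289). Both were above all controls in every Celf1 AKO library, and both put Celf1 AKO replicate 3 and Flox control replicate 1 next to each other. Those libraries were level in the mean of the 10 genes, so this order largely follows from how the genes were picked. Ubap2l, Crlf2 and Dazap2 had smaller log2 fold changes of 0.18, 0.47 and 0.35.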
